A study of Mus musculus with 9 samples.

Results

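The genes described here encode the enzymes, pumps and receptors with which gut tissue handles foreign chemicals. Members were chosen by name: probe sets paired with 1 of 41 listed genes and no other gene, with the brightest taken for each. The names were listed with earlier results of these data known. Of the 41 genes, 40 had such a probe set, out of 18193 genes in the whole series, and 38 were bright enough to be tested, out of 11453. *Por*, the reductase that passes electrons to microsomal P450s, had no probe set of its own here. *Cyp1a1* and *Abcc2* lay below the brightness filter and are given as signals only.

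Chemicals that enter the gut wall are handled in stages. Cytochrome P450s, flavin monooxygenases, dehydrogenases and epoxide hydrolases first add or uncover a reactive group, transferases then couple the product to glutathione, sulfate or glucuronic acid, and ATP-driven pumps carry drugs and conjugates out of the cell. In the gut epithelium P-glycoprotein and BCRP sit on the luminal membrane, and the receptors PXR and AHR switch on many of these genes when they bind foreign or microbial compounds.

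RNA from the large intestine of 9 mice, proximal and distal parts together, was measured on 1 Affymetrix array per mouse at 8 wk of age. The 3 groups of 3 mice each were compared: wild-type C57BL/6, *Winnie* (C57BL/6) and *Eeyore* (a mix of C57BL/6 and NOD-SCID). Both mutant lines came from ENU-treated C57BL/6 founders, and each carries 1 missense change in *Muc2*, the gene of the main secreted gut mucin: cysteine to tyrosine in the D3 domain in *Winnie* and serine to proline in the D4 domain in *Eeyore*. Each strain is 1 line, so an effect of the *Muc2* allele and of other differences of that line cannot be told apart, and in *Eeyore* mice neither can the mixed background. The labels give separate mice but no batch.

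All 9 mice are labelled male. *Xist*, the transcript of the silenced X chromosome, had signals of 7371, 7916 and 8261 in wild-type mice, 9.13, 61.8 and 44.2 in *Winnie* mice and 78.8, 107 and 65.7 in *Eeyore* mice. The Y-linked *Eif2s3y* had signals of 23.9, 4.73 and 24.1 in wild-type mice, 1345, 1074 and 1454 in *Winnie* mice and 1193, 1320.3 and 1265 in *Eeyore* mice. The wild-type arrays thus stood apart from both mutant groups in sex-linked transcripts and went against their label, and sex and genotype cannot be told apart in any comparison with wild-type below. Fewer cells of a type and less RNA per cell cannot be told apart in bulk tissue either. *Muc2* itself had signals of 85946, 75006 and 70046 in wild-type mice, 34791, 25759 and 35694 in *Winnie* mice and 36854, 35935 and 32542 in *Eeyore* mice, with log2 changes of -1.27 ± 0.12 (adjusted p = 8.01e-05) in *Winnie* and -1.13 ± 0.12 (adjusted p = 7.67e-05) in *Eeyore* mice. Median signals were 119 to 129 on wild-type arrays and 88.1 to 99.5 on mutant arrays.

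On the deposited scale more members fell than rose, and this order turned under median centring of the arrays, as did that of all tested probe sets. A log2 difference here is that of mean log2 signals in limma's fit to all 9 arrays, with its standard error, and it is called when the Benjamini-Hochberg adjusted p is under 0.05. Where values for both strains are given without a name, *Winnie* comes first. In *Winnie* mice 11 of 38 members were lower than in wild-type (28.9%, against 11.9% of all 11453 tested genes) and 6 were higher (15.8%, against 11.3%). In *Eeyore* mice 12 of 38 were lower (31.6%, against 16.6%) and 6 were higher (15.8%, against 14.0%). The median log2 difference of the members was -0.30 in *Winnie* and -0.25 in *Eeyore* mice, beside -0.05 and -0.04 over all genes. Both comparisons share the wild-type mice. With each array centred on the median of all its probe sets, 14 members were higher and 6 lower in the *Winnie* strain, and 14 were higher and 9 lower in the *Eeyore* strain. The same centring called 7234 of 22519 tested probe sets higher and 853 lower in *Winnie* mice, and 6350 and 1877 in *Eeyore* mice. In both strains the shares called, higher and lower alike, were then larger among the 38 members than among these probe sets. Those are counts of probe sets and not of genes. Centring on the median of the tested probe sets gave 9 higher and 10 lower members for *Winnie*, and 11 each way for *Eeyore*. Of all tested probe sets 3589 were then higher and 1735 lower in *Winnie* mice, and 4489 and 2625 in *Eeyore* mice. On the deposited scale the shares of members that rose lay near the background and say nothing about the members. Counts within a single role or list, given below, rest on few genes and are to be set beside these same shares of all genes. Members and lists were chosen with earlier results of these data known. An excess over the shares of all genes, here or below, may therefore partly reflect that choice. Without wild-type mouse 1, 3 members were higher in *Eeyore* mice, 4 without wild-type mouse 2, and over all single mice left out the counts lower ran from 8 to 13 in *Winnie* and from 9 to 14 in *Eeyore* mice.

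For 12 members (31.6%, against 17.1% of all tested genes) every one of the 6 mutant mice lay below every wild-type mouse, and for 6 members (15.8%, against 13.5%) every mutant mouse lay above. Between the mutant strains 1 member was higher in *Eeyore* mice (*Adh1*; 1.29% of all genes were higher) and 1 was lower (*Abcb1a*; 1.30% were lower).

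**Figure D1:**
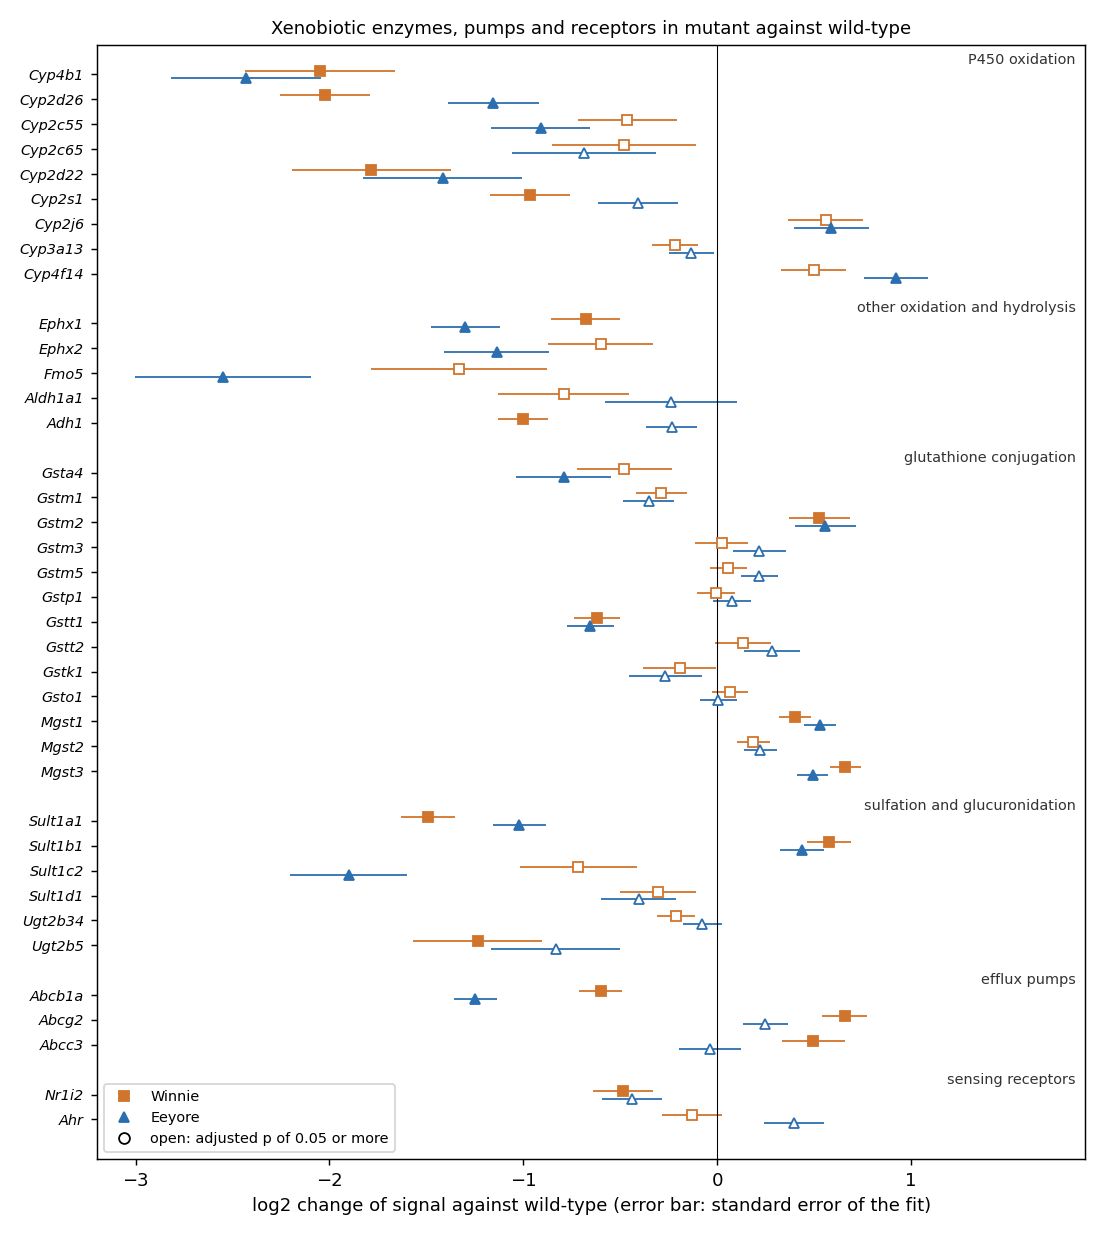
Log2 change of signal against wild-type for the 38 tested members, grouped by role, with *Winnie* as squares, *Eeyore* as triangles and the standard error of the fit as bars; filled symbols have an adjusted p under 0.05. The P450s and other oxidising enzymes lie mostly left of 0 and the glutathione transferases close to it.

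Promoters are shown for 4 members whose changes were called in both strains: *Mgst1* and *Mgst3*, which rose, and *Sult1a1* and *Abcb1a*, which fell. Each is the 250 bases before the transcript start in RefSeq on GRCm38.p6, read 5′ to 3′ on the gene's strand, with motif matches in capitals. Of the 41 members, 35 have such a window. *Mgst1* has another, for a start further downstream (chr6:138141337-138141586), which holds no motif match and 44.0% G and C and is not printed.
*Mgst1* (chr6:138140277-138140526, + strand): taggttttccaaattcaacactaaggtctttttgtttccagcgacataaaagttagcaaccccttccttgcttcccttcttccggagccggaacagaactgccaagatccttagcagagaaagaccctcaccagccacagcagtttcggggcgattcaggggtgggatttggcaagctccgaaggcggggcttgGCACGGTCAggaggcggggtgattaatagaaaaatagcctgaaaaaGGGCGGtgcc
*Mgst3* (chr1:167393842-167394091, - strand): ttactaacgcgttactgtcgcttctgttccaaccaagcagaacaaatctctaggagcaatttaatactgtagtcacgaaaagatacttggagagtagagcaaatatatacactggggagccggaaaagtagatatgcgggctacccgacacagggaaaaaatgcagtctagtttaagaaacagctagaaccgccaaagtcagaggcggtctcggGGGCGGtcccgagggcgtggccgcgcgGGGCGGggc
*Sult1a1* (chr7:126676419-126676668, - strand): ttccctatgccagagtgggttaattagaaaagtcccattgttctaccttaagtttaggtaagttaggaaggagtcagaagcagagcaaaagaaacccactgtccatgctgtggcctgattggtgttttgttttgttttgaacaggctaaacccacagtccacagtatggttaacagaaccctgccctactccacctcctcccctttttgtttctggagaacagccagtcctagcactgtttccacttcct
*Abcb1a* (chr5:8566841-8567090, + strand): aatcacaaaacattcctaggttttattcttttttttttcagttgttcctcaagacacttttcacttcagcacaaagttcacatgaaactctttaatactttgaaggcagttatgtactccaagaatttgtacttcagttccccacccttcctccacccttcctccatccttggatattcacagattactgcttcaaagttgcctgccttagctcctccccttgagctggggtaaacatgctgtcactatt
The letters searched on both strands were GGGCGG (the GC box of SP1), TGACNNNGC (the core of the antioxidant element of NRF2), TNGCGTG (the core of the AHR element) and CAAAGTCC (part of an HNF4A site). In the windows shown, the capitals of *Mgst1* mark 1 match to TGACNNNGC and 1 GC box, those of *Mgst3* mark 2 GC boxes, and *Sult1a1* and *Abcb1a* hold no match, and no matches overlap. GGGCGG was found in 32.7% of all 32851 windows, TGACNNNGC in 10.2%, TNGCGTG in 4.1% and CAAAGTCC in 1.2%. Among members with a window, a GC box was found in any window of 4 of 7 that rose in a strain, of 3 of 13 that fell and of 5 of 12 called in neither, and TGACNNNGC in 2, 0 and 1 of them. G and C made up 52% and 51.6% of the bases in *Mgst1* and *Mgst3* and 45.6% and 40.4% in *Sult1a1* and *Abcb1a*, with a median of 52.4% over all windows. Such matches describe these windows and are not shown to be bound.

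Cytochrome P450s oxidise drugs, fatty acids and steroids. Of the 9 tested, 4 were lower in *Winnie* mice (44.4%, against 11.9% of all genes) and none was higher. In *Eeyore* mice 4 were lower (44.4%, against 16.6%) and 2 higher (22.2%, against 14.0%). *Cyp4b1*, which oxidises fatty acids and activates some furans and aromatic amines, had signals of 2229, 1906 and 1165 in wild-type mice, 885, 306 and 258 in *Winnie* mice and 356, 314 and 283 in *Eeyore* mice. All mutant mice lay below all wild-type mice, and *Winnie* mouse 1 stood above the other mutants. The log2 change was -2.05 ± 0.39 (adjusted p = 0.00366) in *Winnie* mice, a 4.14-fold fall, and -2.43 ± 0.39 (adjusted p = 0.000888) in *Eeyore* mice, a 5.39-fold fall. *Cyp2d26*, of the subfamily that in humans oxidises many basic drugs, had signals of 1346, 1227 and 854 in wild-type mice, 325, 206 and 314 in *Winnie* mice and 405, 586 and 537 in *Eeyore* mice. Here too the groups did not overlap, and *Winnie* mice lay lowest. The log2 difference of *Cyp2d26* was -2.02 ± 0.23 (adjusted p = 0.000267) in *Winnie* and -1.16 ± 0.23 (adjusted p = 0.0037) in *Eeyore* mice, and the difference between the strains was 0.87 ± 0.23 (adjusted p = 0.0838). Without *Eeyore* mouse 1 that difference was called (adjusted p = 0.0437).

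*Cyp2d22*, of the same subfamily, had signals of 516, 560.3 and 453 in wild-type mice, 271, 109 and 108 in *Winnie* mice and 212, 107 and 306 in *Eeyore* mice. All mutant mice lay below wild-type, and *Winnie* mouse 1 and *Eeyore* mouse 3 were the nearest to it. Its log2 difference was -1.79 ± 0.41 (adjusted p = 0.01) in *Winnie* and -1.41 ± 0.41 (adjusted p = 0.0227) in *Eeyore* mice, and its other probe set fell in both strains as well (-1.37 and -1.56). The *Eeyore* call was lost without wild-type mouse 1 (adjusted p = 0.0612), wild-type mouse 2 (0.0737) or *Eeyore* mouse 2 (0.0848). *Cyp2s1*, a P450 of epithelia that acts on retinoids, had signals of 3413, 3123 and 2703 in wild-type mice, 1983, 1224 and 1596 in *Winnie* mice and 1808, 2169 and 3138 in *Eeyore* mice. *Winnie* mice lay below all wild-type mice and *Eeyore* mouse 3 within them. It fell by 0.96 ± 0.21 in *Winnie* mice (adjusted p = 0.00744), and the value in *Eeyore* mice was -0.41 ± 0.21 (adjusted p = 0.159), called without *Eeyore* mouse 3 (0.0328).

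*Cyp2c55* and *Cyp2c65*, of the subfamily that oxidises arachidonic acid and many drugs, lie close together on chromosome 19 with 1 gene between them. *Cyp2c55* had signals of 42673, 41225 and 33507 in wild-type mice, 37057, 20794 and 29124 in *Winnie* mice and 26257, 26139 and 12951 in *Eeyore* mice. *Winnie* mice overlapped wild-type, and *Eeyore* mice did not. It fell in *Eeyore* mice, by 0.91 ± 0.26 (adjusted p = 0.0195), a call lost without wild-type mouse 1 (0.0655) or 2 (0.0639), and the value in *Winnie* mice was -0.46 ± 0.26 (adjusted p = 0.214). *Cyp2c65*, read by a probe set that may bind related transcripts, had signals of 6995, 6484 and 5717 in wild-type mice, 8488, 2792 and 4032 in *Winnie* mice and 5606, 4891 and 2268 in *Eeyore* mice. *Winnie* mouse 1 was the highest of all 9 mice and *Winnie* mouse 2 among the lowest, and neither strain was called at -0.48 ± 0.37 (adjusted p = 0.38) in *Winnie* and -0.69 ± 0.37 (adjusted p = 0.183) in *Eeyore* mice. In both genes *Eeyore* mouse 3 had the lowest signal of its group.

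A pair of P450s went the other way. *Cyp4f14*, whose family inactivates leukotrienes, had signals of 2152, 2012 and 1568 in wild-type mice, 2768, 2312 and 2983 in *Winnie* mice and 3032, 3399 and 4477 in *Eeyore* mice. All mutant mice lay above all wild-type mice. It rose in *Eeyore* mice by 0.92 ± 0.17 (adjusted p = 0.00187), and the value in *Winnie* mice was 0.50 ± 0.17 (adjusted p = 0.0514). That *Winnie* value passed the threshold without *Winnie* mouse 2 (0.0456) or *Eeyore* mouse 1 (0.039) or 3 (0.0289). *Cyp2j6*, of a subfamily that makes epoxides of arachidonic acid, had signals of 559, 568 and 738 in wild-type mice, 1061, 747 and 946 in *Winnie* mice and 1143, 938 and 744 in *Eeyore* mice. Mutant mice again lay above wild-type, *Winnie* mouse 2 and *Eeyore* mouse 3 by very little. Its log2 difference was 0.56 ± 0.19 (adjusted p = 0.0592) in *Winnie* and 0.59 ± 0.19 (adjusted p = 0.0393) in *Eeyore* mice. The *Eeyore* call was lost without any of wild-type mice 1 and 2, *Winnie* mouse 3 and *Eeyore* mice 1 and 2 (adjusted p from 0.0549 to 0.131), and a dimmer probe set gave 0.19 and 0.04, neither called. The *Winnie* value was called without wild-type mouse 3 (0.0435), *Winnie* mouse 2 (0.0427) or *Eeyore* mouse 1 (0.0445) or 3 (0.0417).

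*Cyp3a13*, a gut member of the subfamily that clears many human drugs, had overlapping groups of mice, with means of 4614 ± 367 in wild-type mice, 3982 ± 492 in the *Winnie* strain and 4210.3 ± 381 in *Eeyore* mice (SD, n = 3), and log2 differences of -0.22 ± 0.12 (adjusted p = 0.204) and -0.13 ± 0.12 (adjusted p = 0.418). *Cyp1a1*, the classic target of AHR, was dim on every array, at 100.4, 82.2 and 39.3 in wild-type mice, 44, 23.1 and 4.64 in *Winnie* mice and 57.7, 9.75 and 62 in *Eeyore* mice. No fold is read from such signals.

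**Figure D2:**
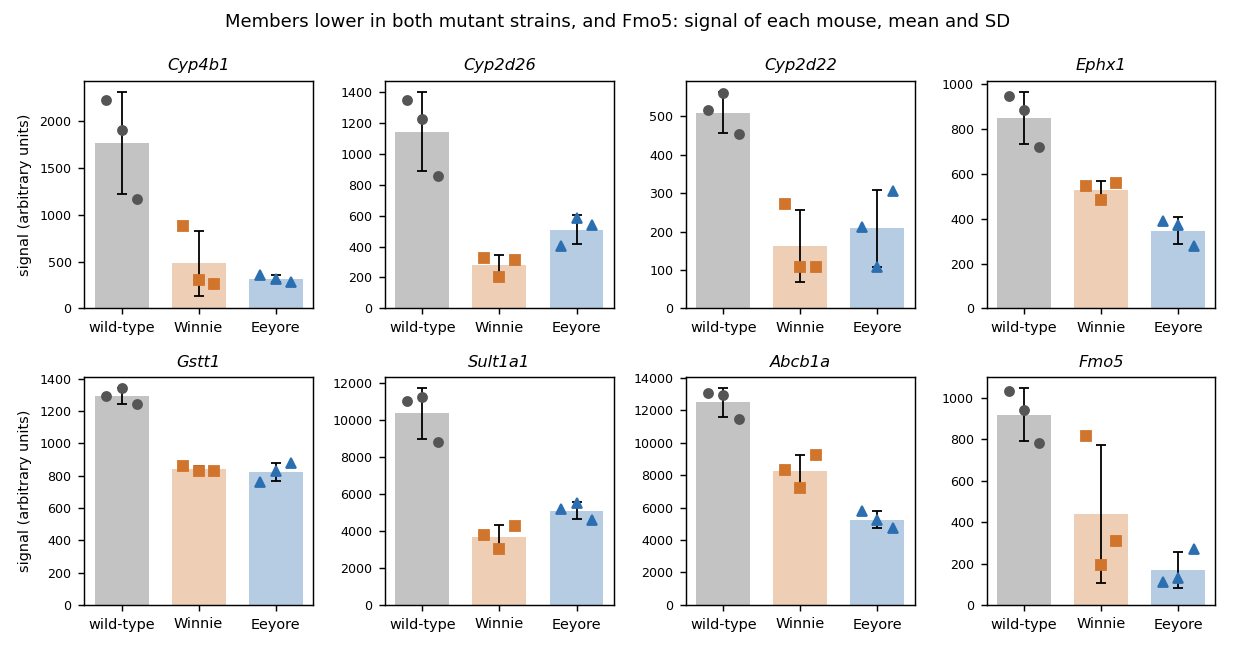
Signal of each mouse (points), group mean (bar) and SD (n = 3) for *Cyp4b1*, *Cyp2d26*, *Cyp2d22*, *Ephx1*, *Gstt1*, *Sult1a1*, *Abcb1a* and *Fmo5*. All mutant points lie below all wild-type points except in *Fmo5*, and *Winnie* mouse 1, the first square, stands high for *Cyp4b1*, *Cyp2d22* and *Fmo5*.

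The other oxidising and hydrolysing enzymes fell or did not pass. In *Winnie* mice 2 of 5 were lower (40.0%, against 11.9% of all genes) and in *Eeyore* mice 3 of 5 (60.0%, against 16.6%). *Ephx1*, the microsomal hydrolase that opens epoxides made by P450s, had signals of 943, 882 and 719.9 in wild-type mice, 544, 483 and 556 in *Winnie* mice and 389, 372 and 277 in *Eeyore* mice. The 3 groups were fully separate, with *Eeyore* mice lowest. The fit gave -0.68 ± 0.18 (adjusted p = 0.019) in *Winnie* and -1.30 ± 0.18 (adjusted p = 0.000382) in *Eeyore* mice, and the *Winnie* call was lost without wild-type mouse 1 (0.0757), wild-type mouse 2 (0.069) or *Winnie* mouse 2 (0.0638). *Ephx2*, the soluble hydrolase of fatty acid epoxides, had signals of 615, 748 and 442 in wild-type mice, 432, 341 and 395 in *Winnie* mice and 314, 347 and 176 in *Eeyore* mice. Both strains lay below all wild-type mice, *Winnie* mouse 1 just so. It fell in *Eeyore* mice by 1.14 ± 0.27 (adjusted p = 0.00863), and the value in *Winnie* mice was -0.60 ± 0.27 (adjusted p = 0.131).

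*Fmo5*, a flavin monooxygenase, had the steepest fall of the members in *Eeyore* mice. Its probe set may bind related transcripts, and its signals were 1035, 943 and 784 in wild-type mice, 818, 192 and 307 in *Winnie* mice and 109, 129.6 and 269 in *Eeyore* mice. *Winnie* mouse 1 lay within the wild-type range and the other mutant mice far below it. The log2 difference was -2.55 ± 0.46 (adjusted p = 0.00177) in *Eeyore* mice, a 5.85-fold fall, and -1.33 ± 0.46 (adjusted p = 0.0562) in *Winnie* mice, where leaving out mouse 1 gave -1.91 (adjusted p = 0.00527). The *Winnie* value was also called without *Eeyore* mouse 1 (0.0476) or 3 (0.0376). *Aldh1a1*, which oxidises retinal and other aldehydes, again had *Winnie* mouse 1 near wild-type, with signals of 6262, 6207 and 4711 in wild-type mice, 6138, 2197 and 2616 in *Winnie* mice and 5251, 6665 and 3185 in *Eeyore* mice. *Winnie* mice 2 and 3 and *Eeyore* mouse 3 lay below the wild-type range. It was called in neither strain, at -0.79 ± 0.34 (adjusted p = 0.114) and -0.24 ± 0.34 (adjusted p = 0.627), but without *Winnie* mouse 1 the *Winnie* value was -1.24 (adjusted p = 0.00758). For *Fmo5* and *Aldh1a1* alike, leaving out *Winnie* mouse 1 removes the mouse that stood apart and the spread it adds.

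*Adh1*, the alcohol dehydrogenase that also oxidises retinol, differed between the mutant strains. Its signals were 20628, 19977 and 22549 in wild-type mice, 8330.0, 11983 and 11560.4 in *Winnie* mice and 16955, 16754 and 20050.1 in *Eeyore* mice. All *Winnie* mice lay below all others, and *Eeyore* mouse 3 lay within the wild-type range. *Adh1* fell 2.00-fold in *Winnie* mice, with a standard error of 0.13 in log2 units (adjusted p = 0.000474), while the log2 difference in *Eeyore* mice was -0.24 ± 0.13 (adjusted p = 0.191). It was 1.7-fold higher in *Eeyore* than in *Winnie* mice (0.77 ± 0.13, adjusted p = 0.00721), a call that was lost without an intensity trend in the variance model (0.0786).

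Glutathione transferases couple electrophiles to glutathione. Of the 13 tested, 3 were higher (23.1%, against 11.3% of all genes) and 1 lower (7.69%, against 11.9%) in *Winnie* mice. In *Eeyore* mice 3 were higher (23.1%, against 14.0%) and 2 lower (15.4%, against 16.6%). The membrane-bound enzymes *Mgst1* and *Mgst3*, which also reduce lipid peroxides, rose in both strains with narrow spread. *Mgst1* had signals of 12505, 12705 and 12371 in wild-type mice, 16729, 15649 and 17339 in *Winnie* mice and 18355, 16455 and 19603 in *Eeyore* mice. *Mgst3* had signals of 7516, 7274 and 7933 in wild-type mice, 12038, 12204 and 11651 in *Winnie* mice and 11168, 9957 and 10885 in *Eeyore* mice. In both genes the mutant mice lay above every wild-type mouse. *Mgst1* rose by 0.40 ± 0.08 (adjusted p = 0.00569) in *Winnie* and 0.53 ± 0.08 (adjusted p = 0.000787) in *Eeyore* mice, and *Mgst3* by 0.66 ± 0.08 (adjusted p = 0.000315) and 0.49 ± 0.08 (adjusted p = 0.000974). Each gene has a second probe set under the brightness filter, with a mean signal of 11.5 for *Mgst1* and 85.4, just under it, for *Mgst3*. Averaged with these, *Mgst1* was not called in *Winnie* mice (adjusted p = 0.184), nor was *Mgst3* in either strain (0.152 and 0.132). *Mgst2*, their relative, was also higher in every mutant than in every wild-type mouse but was not called, at 0.19 ± 0.08 (adjusted p = 0.131) and 0.22 ± 0.08 (adjusted p = 0.0639).

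The mu class genes *Gstm5*, *Gstm3*, *Gstm2* and *Gstm1* lie in this order on chromosome 3, with no gene between *Gstm2* and *Gstm1* in the GRCm38.p6 annotation. *Gstm2* had signals of 1378, 1593 and 2109 in wild-type mice, 2070.5, 2557 and 2611 in *Winnie* mice and 2234, 2549 and 2592 in *Eeyore* mice. Wild-type mouse 3 lay just above *Winnie* mouse 1, and the other mutant mice lay above all wild-type mice. It rose by 0.53 ± 0.16 (adjusted p = 0.0328) in *Winnie* and 0.56 ± 0.16 (adjusted p = 0.02) in *Eeyore* mice. The *Winnie* call was lost without wild-type mouse 1 (0.13) or 2 (0.103) or *Winnie* mouse 2 (0.0977) or 3 (0.108), and the *Eeyore* call without wild-type mouse 1 (0.0823) or 2 (0.0685) or *Eeyore* mouse 2 (0.0624) or 3 (0.0558). Its neighbour *Gstm1* had signals of 4334, 4319.7 and 3999.9 in wild-type mice, 3079, 3789 and 3528 in *Winnie* mice and 3706, 3606 and 2686 in *Eeyore* mice. Here all mutant mice lay below all wild-type mice, though the log2 differences of -0.29 ± 0.13 (adjusted p = 0.137) and -0.35 ± 0.13 (adjusted p = 0.0622) were not called, the latter being called without *Eeyore* mouse 1 (0.0403). *Gstm3* (0.02 and 0.22) and *Gstm5* (0.06 and 0.22) were not called. The brightest probe sets of *Gstm1* and *Gstm3* may bind transcripts of their near-identical relatives.

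*Gstt1*, a theta class enzyme that acts on small halogenated compounds, fell in both strains. Its signals were 1293, 1342 and 1242 in wild-type mice, 863, 828 and 830.0 in *Winnie* mice and 763, 827 and 876 in *Eeyore* mice. The mutant strains lay together, clear of wild-type, at -0.62 ± 0.12 (adjusted p = 0.00426) in *Winnie* and -0.65 ± 0.12 (adjusted p = 0.00207) in *Eeyore* mice. *Gstt2*, with 1 gene between it and *Gstt1* on chromosome 10, had log2 differences of 0.13 ± 0.14 (adjusted p = 0.549) and 0.28 ± 0.14 (adjusted p = 0.163), neither of them called. *Gsta4*, which removes the lipid peroxidation product hydroxynonenal, had signals of 3173, 2799 and 1900.0 in wild-type mice, 2223, 1959 and 1434 in *Winnie* mice and 2060.4, 1403 and 1123 in *Eeyore* mice. *Eeyore* mouse 1 and *Winnie* mice 1 and 2 lay within the wild-type range. It fell in *Eeyore* mice by 0.79 ± 0.24 (adjusted p = 0.0289), a call lost without wild-type mouse 1 (0.11) or 2 (0.0931) or *Eeyore* mouse 2 (0.0808) or 3 (0.101), and the value in *Winnie* mice was -0.48 ± 0.24 (adjusted p = 0.179).

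*Gstp1*, *Gsto1* and *Gstk1* were not called in either strain. *Gstp1*, the pi class enzyme of many epithelia, had means of 23171 ± 2113, 23028 ± 1873 and 24445 ± 2366 for wild-type, *Winnie* and *Eeyore* (SD, n = 3). The log2 differences were -0.01 ± 0.10 and 0.08 ± 0.10. *Gsto1*, an omega class enzyme that reduces dehydroascorbate, had 0.07 ± 0.09 and 0.01 ± 0.09, and *Gstk1*, of mitochondria and peroxisomes, -0.19 ± 0.19 and -0.27 ± 0.19.

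**Figure D3:**
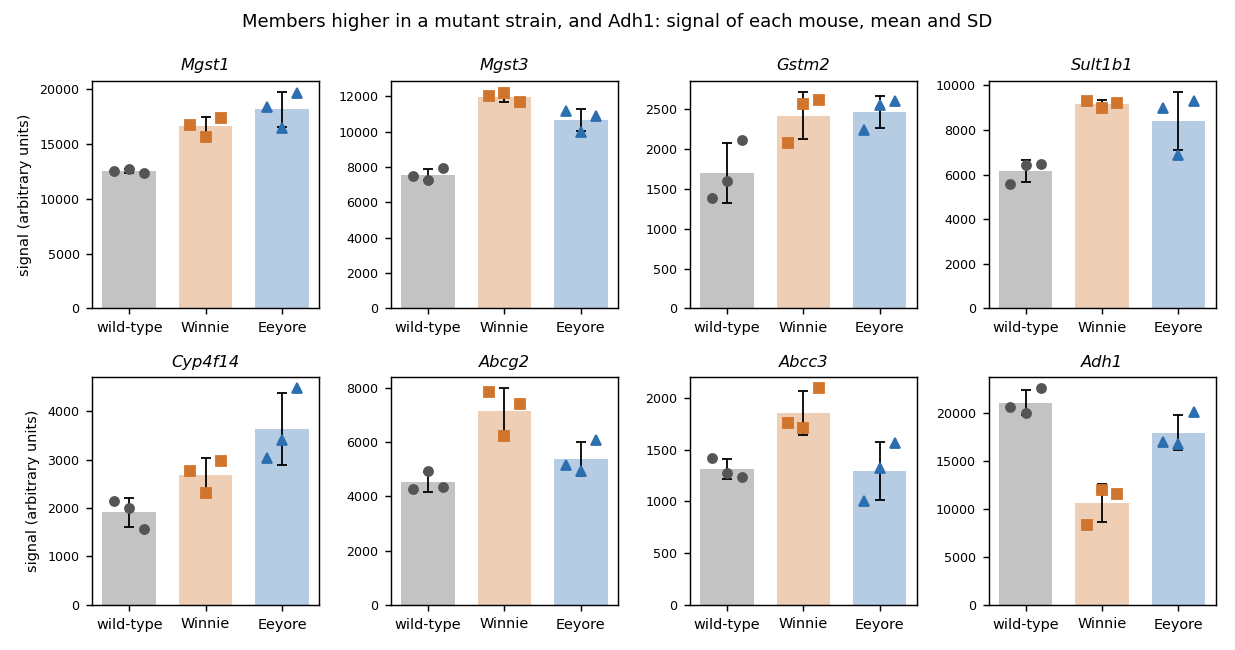
Signal of each mouse (points), group mean (bar) and SD (n = 3) for 7 members called higher in a mutant strain and for *Adh1*. *Mgst1*, *Mgst3*, *Sult1b1* and *Cyp4f14* have all mutant points above all wild-type points, *Abcg2* and *Abcc3* are highest in *Winnie* mice, and *Adh1* is lowest there.

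Sulfotransferases and glucuronosyltransferases make products water-soluble. Of 6 members, 1 was higher (16.7%, against 11.3% and 14.0% of all genes) and 2 lower (33.3%, against 11.9% and 16.6%) in each strain. *Sult1a1* was lower and *Sult1b1* higher in both. *Sult1a1*, the phenol sulfotransferase, had signals of 10980.3, 11246 and 8767 in wild-type mice, 3793, 3011 and 4252 in *Winnie* mice and 5148, 5493 and 4592 in *Eeyore* mice. The groups were fully separate with *Winnie* mice lowest. It fell 2.81-fold in *Winnie* mice (-1.49 ± 0.14, adjusted p = 7.69e-05) and 2.03-fold in *Eeyore* mice (-1.02 ± 0.14, adjusted p = 0.000363), and *Eeyore* minus *Winnie* was 0.47 ± 0.14 (adjusted p = 0.111). *Sult1b1*, which sulfates phenols and thyroid hormones, had signals of 5578, 6428 and 6452 in wild-type mice, 9307, 8965 and 9201 in *Winnie* mice and 8987, 6885 and 9297 in *Eeyore* mice. *Eeyore* mouse 2 was the nearest of the mutants to wild-type, and none overlapped. It rose by 0.58 ± 0.12 (adjusted p = 0.00496) in *Winnie* and 0.44 ± 0.12 (adjusted p = 0.0142) in *Eeyore* mice, and the *Eeyore* call was lost without wild-type mouse 1 (0.0598) or *Eeyore* mouse 3 (0.0509).

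*Sult1d1*, which acts on catecholamines, is the next gene to *Sult1b1* on chromosome 5. Its log2 differences were -0.30 ± 0.20 (adjusted p = 0.288) in *Winnie* and -0.41 ± 0.20 (adjusted p = 0.139) in *Eeyore* mice, the latter being called without *Winnie* mouse 2 (0.0133), and a dimmer probe set of it fell in *Winnie* mice (-0.65, adjusted p = 0.0161). *Sult1c2*, of another branch of the family, had signals of 2045, 1994 and 1739 in wild-type mice, 1276, 1139 and 1099.9 in *Winnie* mice and 988, 412 and 335 in *Eeyore* mice. Both strains lay below wild-type, and *Eeyore* mouse 1 stood apart from the other *Eeyore* mice. It fell 3.73-fold in *Eeyore* mice (-1.90 ± 0.30, adjusted p = 0.000893), and the value in *Winnie* mice was -0.72 ± 0.30 (adjusted p = 0.109). Without *Eeyore* mouse 1, the fall in *Winnie* mice was called (0.00438), as was the difference between the strains (-1.18 with all mice, adjusted p = 0.0694, and -1.65 without it, 9.91e-05). Leaving out the mouse that stood apart also narrows the spread, so these adjusted p do not count the variation it shows.

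*Ugt2b5*, which couples glucuronic acid to steroids and drugs, had signals of 1144, 1244 and 924 in wild-type mice, 877, 258 and 447 in *Winnie* mice and 636, 677 and 540.3 in *Eeyore* mice. Wild-type mice were highest without overlap, and *Winnie* mice were widely spread. The fitted difference was -1.23 ± 0.33 (adjusted p = 0.0212) in *Winnie* and -0.83 ± 0.33 (adjusted p = 0.0792) in *Eeyore* mice. The *Winnie* call was lost without wild-type mouse 1 (0.0658) or 2 (0.0768) or *Winnie* mouse 2 (0.0593) or 3 (0.0607), and the *Eeyore* value was called without *Winnie* mouse 1 (0.0145) or 2 (0.0192). *Ugt2b34*, of the same family, was not called, at -0.21 ± 0.10 (adjusted p = 0.145) and -0.08 ± 0.10 (adjusted p = 0.591), and its probe set may bind relatives.

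The efflux pumps went in different directions in *Winnie* mice, with 2 of 3 higher (11.3% of all genes were) and 1 lower (11.9%). In *Eeyore* mice 1 was lower (16.6% of all genes were) and none higher (14.0%). With 3 genes these counts say little about pumps as a class. *Abcb1a*, the P-glycoprotein of the luminal membrane, had signals of 13048, 12942 and 11479.7 in wild-type mice, 8332, 7226 and 9244 in *Winnie* mice and 5819.6, 5208 and 4770.1 in *Eeyore* mice. The 3 groups were fully separate, with wild-type highest and *Eeyore* lowest. It fell 1.52-fold in *Winnie* mice (-0.60 ± 0.11, adjusted p = 0.0033) and 2.38-fold in *Eeyore* mice (-1.25 ± 0.11, adjusted p = 2.08e-05). *Eeyore* mice differed from *Winnie* mice by -0.65 ± 0.11 (adjusted p = 0.0077), a call lost without an intensity trend (0.0799). Its dimmer probe set gave -0.15 in *Winnie* and -0.77 in *Eeyore* mice (adjusted p = 0.549 and 0.00417), and averaged over both probe sets the *Winnie* fall was not called (0.0666).

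*Abcg2*, the breast cancer resistance protein BCRP, had signals of 4251, 4942 and 4353 in wild-type mice, 7824, 6209.6 and 7387 in *Winnie* mice and 5132, 4913 and 6074 in *Eeyore* mice. All *Winnie* mice lay above all others. It rose by 0.66 ± 0.12 (adjusted p = 0.00272) in *Winnie* mice, and the value in *Eeyore* mice was 0.25 ± 0.12 (adjusted p = 0.131). *Eeyore* minus *Winnie* was -0.41 ± 0.12 (adjusted p = 0.102). *Abcc3*, the basolateral pump MRP3 for glucuronides and bile salts, had signals of 1423, 1274 and 1236 in wild-type mice, 1759.8, 1709 and 2093 in *Winnie* mice and 1006, 1320.1 and 1566 in *Eeyore* mice. *Winnie* mice again lay above all others. The fit gave 0.50 ± 0.16 (adjusted p = 0.0454) in *Winnie* and -0.04 ± 0.16 (adjusted p = 0.889) in *Eeyore* mice, and the *Winnie* call was lost without any 1 of the wild-type or *Winnie* mice or without *Eeyore* mouse 2 (adjusted p from 0.0589 to 0.153). *Abcc2*, the luminal pump MRP2, was dim on every array, at 73.7, 55 and 37 in wild-type mice, 61.1, 6.1 and 50.4 in *Winnie* mice and 5.38, 10.5 and 4.32 in *Eeyore* mice.

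Of the 2 sensing receptors, 1 was lower in *Winnie* mice (11.9% of all genes were) and none was called in *Eeyore* mice. *Nr1i2* encodes PXR. Its signals were 1173, 944 and 919 in wild-type mice, 693, 679.8 and 785 in *Winnie* mice and 789.8, 635 and 815 in *Eeyore* mice. Wild-type mice were the 3 highest. Its log2 difference was -0.49 ± 0.15 (adjusted p = 0.042) in *Winnie* and -0.44 ± 0.15 (adjusted p = 0.0503) in *Eeyore* mice, which stood on either side of the threshold, and the *Winnie* call was lost without any 1 of the wild-type or *Winnie* mice (adjusted p from 0.0527 to 0.156). A dimmer probe set of *Nr1i2* gave -0.41 (adjusted p = 0.072) in *Winnie* and -0.14 (adjusted p = 0.502) in *Eeyore* mice, neither called. *Ahr*, the aryl hydrocarbon receptor, had signals of 815, 1044 and 1221 in wild-type mice, 899, 897 and 986 in *Winnie* mice and 1467, 1308 and 1238 in *Eeyore* mice. *Eeyore* mice lay above all other mice. Its log2 differences were -0.13 ± 0.15 (adjusted p = 0.587) and 0.40 ± 0.15 (adjusted p = 0.073), and the latter was called without wild-type mouse 3 (0.032).

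**Figure D4:**
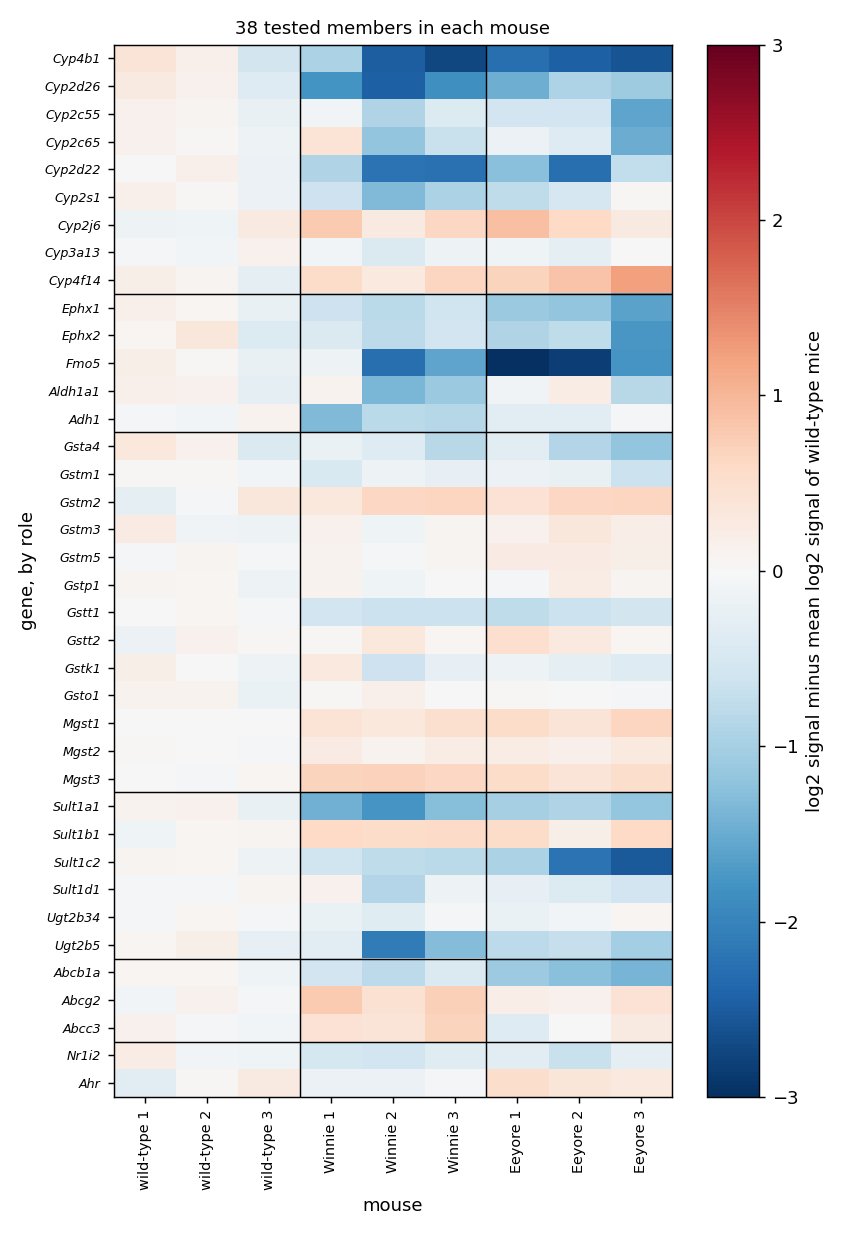
Log2 signal of the 38 tested members in each of the 9 mice, minus the mean log2 signal of the wild-type mice, with genes grouped by role, red for higher and blue for lower, with colour ending at 3 either way. *Winnie* mouse 1 is less blue than *Winnie* mice 2 and 3 in *Cyp4b1*, *Cyp2d22*, *Fmo5*, *Aldh1a1* and *Ugt2b5*, and *Eeyore* mouse 3 is bluer than its group in *Cyp2c55* and *Cyp2c65*.

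Within groups, single mice leaned one way over many members. *Winnie* mouse 1 had the highest signal of its group for 23 of 38 members, and *Winnie* mouse 2 the lowest for 28, beside 33.9% and 36.8% of all tested genes. Wild-type mouse 3 was the lowest of its group for 26 members, beside 37.2% of all genes, and wild-type mouse 1 the highest for 20, beside 35.5%. *Winnie* mouse 1 also had the highest signal of its group for the fat cell genes *Adipoq* (2119, against 500.1 and 996) and *Fabp4* (3726, against 1691 and 2324). Without *Winnie* mouse 1, 12 members were lower in *Winnie* mice in place of 11, and without *Winnie* mouse 2, 8 were.

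Marker genes of other cell types differed between mutant and wild-type mice as well, a contrast in which sex and genotype cannot be told apart. Of all tested genes 11.3% rose and 11.9% fell in *Winnie* mice, and 14.0% and 16.6% in *Eeyore* mice. All 10 smooth muscle genes listed fell in both strains, with a summed signal of 139180.0 to 144608 in wild-type mice, 65146 to 71079 in the *Winnie* strain and 52779 to 58618 in *Eeyore* mice. Of 4 adipocyte genes 3 fell in both strains, and their summed signal was 8913 to 11039, 2468 to 6430.0 and 631 to 1853. Of 7 fibroblast genes 3 fell in the *Winnie* strain and 4 in the *Eeyore* strain. Of 10 pan-epithelial genes none fell, and 4 rose in the *Winnie* strain and 7 in the *Eeyore* strain, and their sum was 227680.0 to 236887, 263080.0 to 274011 and 283568 to 308000.0. The 10 absorptive colonocyte genes went both ways, with 2 higher in each strain, 1 lower in *Winnie* mice and 2 lower in *Eeyore* mice. Of 8 goblet cell genes 1 rose and 3 fell in each strain, *Muc2* among the latter, and of 7 tested leukocyte genes 2 rose in *Eeyore* mice. The part of these shifts in the members' changes was not tested.

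Of 6 liver genes, *Ahsg*, *Fgb* and *Apoa2* lay below the filter, and *Alb* was dim, with means of 86.4 ± 43.2, 142 ± 22.6 and 142 ± 37 for wild-type, *Winnie* and *Eeyore* (SD, n = 3). *Ttr*, the thyroid hormone carrier of blood, was brighter, at 4009 ± 891, 2578 ± 889 and 2669 ± 901, and *Cyp2e1* was at 1036 ± 368, 411 ± 201 and 178 ± 114. None of the 3 tested liver genes was called in *Winnie* mice, and *Cyp2e1* fell in *Eeyore* mice, where *Ttr* was called only without *Eeyore* mouse 1 (adjusted p = 0.0417). The tissue is labelled large intestine. *Car1* (mean 55598 ± 6919 in wild-type mice) was bright and not called in either strain, while other absorptive colonocyte genes were called, as given above. Of 5 tested distal hindgut Hox genes none was called in either strain. *Hoxb13* (5199 ± 749 in wild-type mice) and *Hoxd13* (2021 ± 424) were the bright ones, and *Hoxb13* ran from 3451 to 7289 in *Winnie* mice. *Hoxa13* (144 ± 65.0), *Hoxd10* (309 ± 120) and *Hoxd11* (195 ± 77.2) were dim, and *Hoxd12* lay below the filter.

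**Figure D5:**
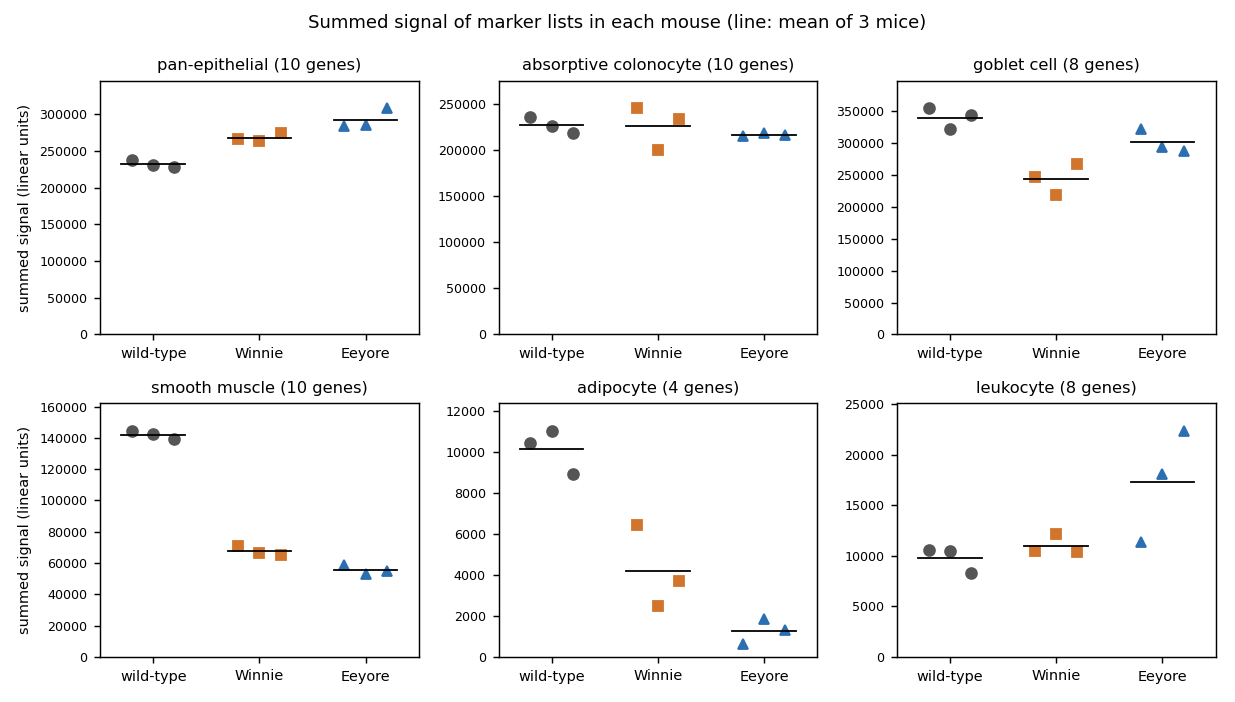
Summed signal of 6 lists of marker genes in each mouse, in linear signal units, with a line at the mean of 3 mice. Smooth muscle and adipocyte sums are lower in all mutant mice than in all wild-type mice, and the pan-epithelial sum is higher in all of them.

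Around the members, 75 other genes of the same pathways were tested. In *Winnie* mice 7 were higher (9.33%, against 11.3% of all genes) and 20 lower (26.7%, against 11.9%). In *Eeyore* mice 8 were higher (10.7%, against 14.0%) and 20 lower (26.7%, against 16.6%), and the medians were -0.15 and -0.20. The order turned with arrays centred on the median of all probe sets, to 22 higher and 9 lower for *Winnie* and 19 higher and 9 lower for *Eeyore*. That centring called 7234 of 22519 tested probe sets higher and 853 lower in *Winnie* mice, and 6350 and 1877 in *Eeyore* mice. Leaving out 1 mouse lowered the 20 in *Winnie* mice most without *Winnie* mouse 2 (12), *Winnie* mouse 3 (13) or wild-type mouse 2 (13), and the 20 in *Eeyore* mice most without wild-type mouse 2 (12), while 5 rose in *Eeyore* mice without wild-type mouse 3. Among 11 further P450s and reductase partners, 1 rose in each strain, and 5 fell in *Winnie* mice and 6 in *Eeyore* mice. *Cyp2f2*, known for activating naphthalene in airways, had the largest fall of the list in *Eeyore* mice, with signals of 764, 1005 and 687 in wild-type mice, 404, 298 and 356 in *Winnie* mice and 65, 64.8 and 53.5 in *Eeyore* mice. The groups were fully separate, with *Eeyore* mice lowest. It changed by -1.21 ± 0.22 (adjusted p = 0.00338) in *Winnie* and -3.73 ± 0.22 (adjusted p = 1.03e-06) in *Eeyore* mice, and the difference between the strains was -2.52 ± 0.22 (adjusted p = 5.96e-05). *Cyp2e1*, which oxidises ethanol, fell by 2.79 ± 0.57 in *Eeyore* mice (adjusted p = 0.00392), beside -1.39 ± 0.57 (adjusted p = 0.103) in *Winnie* mice, called without *Eeyore* mouse 1 (0.0183). *Cyp4v3*, a fatty acid hydroxylase and the largest called fall of the list in *Winnie* mice, changed by -1.66 ± 0.34 (adjusted p = 0.00546) in *Winnie* and -1.07 ± 0.34 (adjusted p = 0.0328) in *Eeyore* mice. The *Cyp4v3* call in *Eeyore* mice was lost without any 1 of the wild-type mice or *Eeyore* mouse 1 or 2 (adjusted p from 0.0607 to 0.101).

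Of 23 other oxidising and hydrolysing enzymes, 2 rose in each strain, and 5 fell in *Winnie* mice and 8 in *Eeyore* mice. The carboxylesterase *Ces1g* changed by -1.66 ± 0.40 (adjusted p = 0.0127) and -1.76 ± 0.40 (adjusted p = 0.00695), and its *Winnie* call was lost without *Winnie* mouse 2 (0.0502). *Ces1d*, of the same family, fell in *Eeyore* mice (-1.88 ± 0.35, adjusted p = 0.00238), and its value of -0.98 ± 0.35 (adjusted p = 0.0674) in the *Winnie* strain was called without *Winnie* mouse 1 (0.0164) or *Eeyore* mouse 3 (0.0254). The flavin monooxygenase *Fmo2* fell in both strains, with changes of -1.24 ± 0.29 (adjusted p = 0.0107) and -1.72 ± 0.29 (adjusted p = 0.0012). Of 18 conjugation genes, 4 rose in each strain, and 6 fell in *Winnie* mice and 3 in *Eeyore* mice. *Sult2b1*, which sulfates cholesterol, rose in both, by 1.02 ± 0.20 (adjusted p = 0.00402) and 1.19 ± 0.20 (adjusted p = 0.00108). *Ugt8a*, of galactolipid synthesis, was dim in mutant mice and changed by -1.68 ± 0.41 (adjusted p = 0.0129) and -1.90 ± 0.41 (adjusted p = 0.00495), with the *Winnie* call lost without wild-type mouse 1 (0.0563). *Hnmt*, the histamine methyltransferase, changed by -1.09 ± 0.30 (adjusted p = 0.0223) and -1.01 ± 0.30 (adjusted p = 0.0246), and both calls were lost without any 1 of the wild-type mice (up to 0.0673), the first also without *Winnie* mouse 2 or 3 and the second without *Eeyore* mouse 2.

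Of 11 transporters, 1 fell in *Winnie* mice, and 1 fell and 1 rose in *Eeyore* mice. *Abcc1*, the pump MRP1, fell in *Eeyore* mice (-0.77 ± 0.14, adjusted p = 0.00239), beside -0.20 ± 0.14 (adjusted p = 0.334) in *Winnie* mice. The uptake carrier *Slco2b1* had log2 differences of -1.03 ± 0.28 (adjusted p = 0.0212) and -0.70 ± 0.28 (adjusted p = 0.0779), and the *Winnie* call was lost without wild-type mouse 1 (0.0816) or *Winnie* mouse 2 (0.0746) or 3 (0.0799), while the *Eeyore* value was called without *Winnie* mouse 1 (0.0229). *Slc22a18*, of the organic cation carrier family, rose in *Eeyore* mice by 0.53 ± 0.14 (adjusted p = 0.0157), a call lost without wild-type mouse 3 (0.0567), beside 0.41 ± 0.14 (adjusted p = 0.0578) in *Winnie* mice, called without *Winnie* mouse 2 (0.0202).

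Of 12 nuclear receptors and their partners, 3 fell in *Winnie* and 2 in *Eeyore* mice and none rose. *Vdr*, the vitamin D receptor, fell in both. It had signals of 5247, 4994 and 4915 in wild-type mice, 2924, 1898 and 2665 in *Winnie* mice and 1866, 2387 and 3787 in *Eeyore* mice. Wild-type mice were highest and narrowly spread, with log2 differences of -1.04 ± 0.22 (adjusted p = 0.00704) in *Winnie* and -0.98 ± 0.22 (adjusted p = 0.00674) in *Eeyore* mice. *Ppara*, a sensor of fatty acids, had log2 differences of -1.71 ± 0.32 (adjusted p = 0.00355) and -0.81 ± 0.32 (adjusted p = 0.0749), and the latter was called without *Winnie* mouse 1 (0.0127) or 2 (0.0464). *Nr5a2*, a receptor of the gut crypt and liver, fell in both, with changes of -0.87 ± 0.18 (adjusted p = 0.00632) and -1.01 ± 0.18 (adjusted p = 0.00187), neither of which was called when its probe sets were averaged (0.408 and 0.329).

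Where the scale of the arrays is set bears on all of these directions. The deposited signals were scaled to 1 trimmed mean per array, on which the median log2 difference of all tested probe sets was -0.09 in both strains. Centring each array on the median of all its probe sets moved that median to 0.32 in *Winnie* and 0.24 in *Eeyore* mice and the split of higher against lower probe sets from 2195 against 2639 to 7234 against 853 in *Winnie* and from 2747 against 3842 to 6350 against 1877 in *Eeyore* mice. Quantile normalization gave 5 higher and 13 lower members in either strain, with splits of 2385 against 1989 and 3120 against 2999 probe sets, and centring on the median of the tested probe sets gave splits of 3589 against 1735 and 4489 against 2625.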

How the data were processed

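The authors deposited 1 linear signal intensity per probe set and array for 45101 probe sets, scaled to a mean of 500 after the lowest and highest 2% were trimmed. The signal algorithm is not given in the sources used here, and detection calls are not used. The log2 of each deposited intensity was taken with no further normalization. Leaving out controls, 45037 probe sets remained, of which the brighter 22519, with a mean log2 signal of at least 6.43 (a signal of 85.9, the median), entered the tests. The platform annotation, with symbols updated by gene identifier, gives 1 gene for 34945 probe sets, several for 932 and none for 9160.

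The tests used limma (version 3.58.1, R version 4.3.3): lmFit on the group means, then eBayes with trend on, and Benjamini-Hochberg adjustment across every probe set tested, separately per comparison, at 0.05. The number of arrays, 3 per group from separate mice, limits the precision. On simulated data of 22519 probe sets with 200 changed, the comparison of *Winnie* with wild-type recovered 33.9% of genes shifted by 1 in log2 and 83.6% of those shifted by 2, that of *Eeyore* with wild-type 38.1% and 78.0%, and that of the strains 50.0% and 73.6%. In the data themselves 2195 probe sets were called higher and 2639 lower in *Winnie* mice, and 2747 and 3842 in *Eeyore* mice. The simulation held far fewer changes, so its recovery rates do not give those of these data. Members and gene lists were chosen with earlier results of these data known. The text names all members, of each pathway list the 2 largest called changes in each strain, *Muc2* and genes of the marker lists. Other settings tried were quantile normalization, centring on either of 2 medians, other brightness filters or none at all, 32 added to each signal, variance models without a trend or robust to outlying genes, fits of single pairs of groups, a block for mouse number, thresholds of 2-fold, averages over a gene's probe sets and fits without each mouse in turn. Promoter sequences came from RefSeq. Python 3.11.15 with matplotlib 3.10.9 drew the figures.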

Additional observations from a re-analysis of the deposited data

Results flagged for a closer look

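The mutant strains differed from each other, by limma's test of the difference, in a few of the genes named above. Among the members *Adh1* was higher in *Eeyore* than in *Winnie* mice (log2 difference 0.77, adjusted p = 0.00721), and the value for *Abcb1a* was -0.65 (adjusted p = 0.0077). Of the other pathway genes named, *Cyp2f2* differed by -2.52 (adjusted p = 5.96e-05), a size that is uncertain because its *Eeyore* signals lay below the filter level. Of the marker genes, *Clca1* (0.97) and *Guca2b* (0.80) were higher in *Eeyore* mice, and the differences of *Myh11* (-0.58), *Tagln* (-0.34), *Synpo2* (-0.67) and *Fabp4* (-1.67) ran the other way. Strain background and allele cannot be told apart in any of them. Groups of 3 mice are too small for a test of single outlying mice.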

How the results depend on the processing

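Of 37 calls of single members, 18 held under each of the 20 single-gene alternatives in which the gene was tested. These were 8 of 17 in *Winnie* mice, 10 of 18 in *Eeyore* mice and 0 of 2 between the strains. The 2 calls between the strains were lost only without an intensity trend. The filter at the 75th percentile left out *Cyp2d22*, *Ephx2* and *Fmo5*, so 105 of 114 member values were tested there. Of 77 values not called, 46 were called under none. Median centring gave 14 members higher in each strain, 6 lower in *Winnie* mice and 2 lower in *Eeyore* than in *Winnie* mice, and among the other pathway genes 9 lower in each strain, 22 higher in *Winnie* mice and 19 higher in *Eeyore* mice. It also turned *Gstp1* in *Winnie* mice to 0.40, *Slc26a3* in *Winnie* mice to 0.31 and *Muc3* to 0.23 in *Winnie* and 0.066 in *Eeyore* mice. Centring on the median of tested probe sets, chosen after seeing the data, gave 11 members higher in *Eeyore* mice, 14 other pathway genes higher in *Winnie* mice and 12 lower in *Eeyore* mice. A 2-fold threshold left 0 members higher and 6 lower in *Winnie* mice, 0 higher in *Eeyore* mice and 0 either way between the strains, with 1 pathway gene higher in each strain, 13 lower in the *Winnie* strain and 10 in the *Eeyore* strain. The ratio of average signals gave the same counts, except 2 members lower in *Eeyore* than in *Winnie* mice and 9 pathway genes lower in *Eeyore* mice. Without an intensity trend 3 members were higher in *Eeyore* mice and 0 differed either way between the strains. With the mean over probe sets 3 members and 4 other pathway genes were higher in *Winnie* mice, and *Synpo2* between the strains turned to 0.23. The filter at the 75th percentile, with fewer genes tested, gave 11 lower pathway genes in the *Winnie* strain and 12 in the *Eeyore* strain.

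Leaving out 1 mouse at a time gave 4 to 8 members higher and 8 to 13 lower in the *Winnie* strain, 3 to 7 higher and 9 to 14 lower in the *Eeyore* strain, and 1 to 2 either way between the strains. For the other pathway genes it gave 5 to 8 higher and 12 to 21 lower in the *Winnie* strain, and 5 to 8 and 12 to 22 in *Eeyore* mice. *Aqp8* in *Eeyore* mice ran from -0.40 without *Eeyore* mouse 3 to 0.32 without mouse 1. The cause was not tested in any of these. Deviations from the group means had correlations of -0.00821 to 0.164 between mice of the same number. Mice of different number were not compared, so whether those of the same number share a batch was not tested. With mouse number as a replicate block, 2 members were lower in *Eeyore* than in *Winnie* mice, *Sult1c2* being added, and *Gsta4* was called in *Winnie* mice (adjusted p = 0.0172), with no member call lost. *Cyp1a1* and *Abcc2* are too dim on these arrays for a test. Data from 3 mice per group leave small changes undetected.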
